A study of Homo sapiens with 24 samples.

Results

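The net change of U87 Si306 + 2 Gy over untreated cells describes what protons and the drug did together to the transcripts of U87 MG, an established human glioblastoma line. It was not hybridized directly. It is the sum of 2 measured terms, the log2 ratio of U87 2 Gy to untreated cells and the log2 ratio of U87 Si306 + 2 Gy to U87 2 Gy, so that a net of 1 stands for a 2-fold higher level after the combined treatment. Si306 is a SRC family kinase inhibitor and was given at 10 µM, protons were given at 2 Gy, and RNA was collected 24 h after irradiation. The untreated cells received neither, and no sample received Si306 without protons. Of the 24 deposited samples, 11 carry these terms, namely 5 labelled U87 2 Gy and 6 labelled U87 Si306 + 2 Gy. The labels call them biological replicates, but the array headers show repeat scans of 2 arrays for each term, all 3 scans of an array holding the same hybridization. Scans were therefore averaged and n = 2 arrays for each term, or 1 where the text says so because the spots of the other array were outlier-flagged, and nothing says that the 2 arrays come from separate cultures, so p-values measure only the spread between these arrays. A further scan with the U87 2 Gy label (replicate 5) was left out, since its header places it on a U87 10 Gy array, and its log2 ratios differed from the other scans there by an SD of 0.077 and from the U87 2 Gy scans by 0.178. Cy5 always carried the treated RNA and Cy3 its control, without a dye swap, so a dye effect of a probe enters both terms with the same sign and cannot be told apart from a change in both.

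Ionizing radiation breaks DNA, and the break response works through p53, which switches on genes of arrest, repair and death and, through p21, the product of CDKN1A, keeps cell cycle genes off. SRC is a non-receptor tyrosine kinase that passes signals of growth factor receptors and adhesion sites to RAS, PI3K and STAT3, and immediate early genes such as FOS and EGR1 are the fast transcriptional output of these routes. In glioblastoma SRC signalling is known for its part in migration and invasion.

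The 2 terms lie on separate slides, and the 2 Gy RNA, hybridized in Cy5 on slide 1 and in Cy3 on slide 2, should link them. Its levels differed widely between the slides. Of 22816 genes, 16505 (72.3%) lay within 2-fold of each other, while 774 (3.39%) differed 8-fold or more, 354 of them brighter on slide 1 and 420 brighter on slide 2. The SD of the difference across genes was 1.24 on the log2 scale, against 0.197 and 0.152 between the 2 arrays of a slide in the same channel. The 10 Gy RNA, linked in the same way, gave an SD of 1.24, and the 2 differences departed from each other by an SD of only 0.218, so the difference was much the same at both doses. Mean intensities correlated at 0.996 to 0.999 between arrays of a slide and at 0.872 to 0.878 between slides, a description over 22857 probes that share both dyes. The keratin gene KRT19 had a log2 level of 7.40 on slide 1 and 16.69 on slide 2, and the epithelial adhesion gene EPCAM 6.24 and 10.89. The ubiquitin hydrolase gene UCHL1 had 16.62 and 6.01, and the glioma marker CHI3L1 12.83 and 6.21. Both slides were high for VIM (16.83 and 17.17), LGALS1 (16.96 and 16.64) and CAV1 (13.63 and 14.72), markers of mesenchymal glioblastoma lines. The summed level of the 12 glioblastoma line markers was 18.3 on slide 1 and 18.1 on slide 2, but VIM and LGALS1 carry that sum. Of the 11 tested, 3 lay within 2-fold, 4 were brighter on slide 1 and 4 on slide 2, with CD44 at 15.21 and 12.86, TNC at 13.92 and 11.88 and GFAP at 6.82 and 8.42. The summed level of 7 epithelial markers was 9.44 and 16.7, 3 of them standing above 8 on slide 2 and 0 on slide 1, but KRT19 carries the sum of slide 2, and CDH1 (6.04 and 5.99), KRT5 (6.21 and 5.99) and ESRP1 (6.75 and 6.44) were at the low end on both. Of the defining glial markers, OLIG2 (6.56 and 6.03) and S100B (6.22 and 6.22) were at the low end on both, and SOX2 was 6.07 and 8.58. The 2 dyes of a slide gave similar levels, with KRT19 at 7.38 (Cy3, untreated) and 7.40 (Cy5, 2 Gy) on slide 1. On slide 2 it stood at 16.69 (Cy3, 2 Gy) and 16.90 (Cy5, combined treatment). UCHL1 stood at 16.31 and 16.62 on slide 1 and at 6.01 and 6.11 on slide 2. The part of dye was not tested. Slide, hybridization and the source of the RNA cannot be told apart in this design. Each term is a ratio within an array and stands on its own, but the net and its p-values assume that the 2 Gy RNA was the same on both slides, and slide levels or counts are given below beside the main results.

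**Figure D1:**
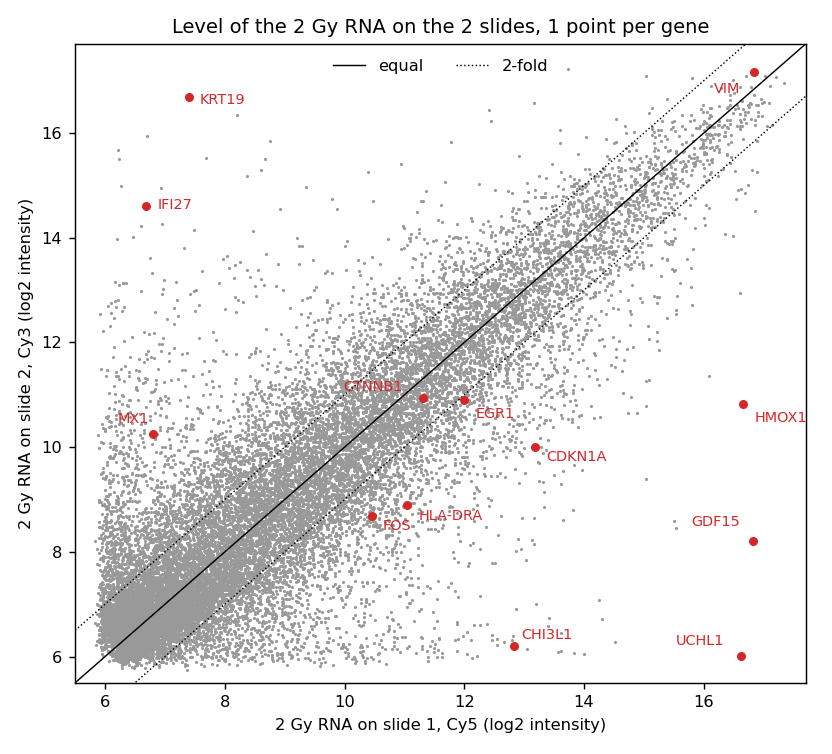
Each point is 1 gene, with the log2 intensity of the 2 Gy RNA in Cy5 on slide 1 on the x axis and in Cy3 on slide 2 on the y axis, each a mean of 2 arrays after loess within and quantile scaling of mean intensity between arrays. The solid line marks equal levels and the dotted lines 2-fold, and named genes are red. KRT19 and IFI27 lie far above the lines and UCHL1, GDF15 and HMOX1 far below, while VIM and CTNNB1 lie within the 2-fold lines.

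Over all tested genes the net passed a 2-fold change with an adjusted p under 0.05 (limma, Benjamini-Hochberg over all genes) in 469 of 22816, or 2.06%. These deregulated genes (DEGs) were 356 up regulated (1.56%) and 113 down regulated (0.495%). Rises were thus 75.9% of the DEGs, but this split depends on the scaling: with each scan centred on its median in place of the loess curve 8496 genes passed, of which 38.8% rose, and with the log10 ratios of the scanner software 2737 passed, of which 68.6% rose. At 1.5-fold, the threshold used below for terms, gene lists and classes, 2506 (11%) were called, of which 1650 rose (7.23%) and 856 fell (3.75%). Since 67.7% of the genes had an adjusted p under 0.05 at any size, the fold decides the calls. The SD of the net across genes was 0.384, against 0.266 for the radiation term and 0.293 for the Si306 term, and the median over all genes was 0.07. Of the 356 up regulated DEGs, 156 (43.8%) had 2 Gy RNA within 2-fold on the slides, and of the 113 down regulated DEGs 57 (50.4%).

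Among genes well above background in both channels on all 4 arrays, 5 of the 7 rises named here for the size of their net came from the Si306 term. ARHGEF15, a guanine nucleotide exchange factor for RHOA, had radiation log2 ratios of 0.23 and 0.32 on the 2 arrays and Si306 ratios of 3.02 and 2.98. Both Si306 arrays stood far above both radiation arrays, and the net was 3.27 ± 0.05 (SE, n = 2 arrays a term; adjusted p = 4.15e-11 in limma), a 9.67-fold rise. Its 2 Gy RNA lay at 9.25 and 9.79 on the slides. HMOX1, which encodes the heme-degrading enzyme heme oxygenase 1, gave 0.24 and 0.23 after radiation and 2.12 and 2.10 with Si306, for a net of 2.34 ± 0.05 or 5.07-fold. The arrays of each term lay within 0.02 of each other, but the 2 Gy RNA had a level of 16.66 on slide 1 and 10.82 on slide 2, so the 2 terms start from levels that differ by 5.84. The chemokine receptor gene CCR3 gave -0.11 and -0.19, then 2.78 and 2.59, for a net of 2.53 ± 0.08. The adhesion molecule gene CEACAM1 had a net of 2.46 ± 0.07, but its 2 other probes gave -0.16 and 0.03. C5AR2, a receptor for complement C5a, rose by a net of 2.29. CTNNB1 and the calcium channel gene CACNA1I, described below, are the other two.

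By the same rule the falls with the largest net were C1S, AFG3L1P, TROAP, XAF1, HLA-DRB1, RRM2, NSD2 and FAM83D. C1S, the serine protease of the first complement component, gave radiation ratios of 0.15 and 0.14 and Si306 ratios of -2.03 and -1.84. Radiation left it near its untreated level on both arrays, Si306 lowered it on both, and the net was -1.79 ± 0.06 (adjusted p = 5e-09 in limma), with 2 Gy RNA at 11.66 and 10.24. TROAP, a spindle-associated protein gene, and NSD2, a histone methyltransferase gene, were lower in both terms: TROAP gave -0.57 and -0.49, then -0.99 and -0.95, for a net of -1.50, and NSD2 gave -0.36 on both arrays, then -1.09 and -1.07, for a net of -1.44 (-0.78 to -0.08 by 4 other probes of NSD2). Their 2 Gy RNA lay at 11.39 and 11.93 (TROAP) and at 11.54 and 11.96 (NSD2) on the 2 slides. The pseudogene AFG3L1P had a net of -1.75, and its other probe gave -0.83. Its 2 Gy RNA was at 10.12 and 11.33, and that of XAF1 at 6.82 and 8.76. The untreated level of XAF1 on slide 1 was 7.13, near the low end, where a fall of the size of its net could hardly be seen.

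Radiation alone moved 820 of 22840 genes (3.59%) by 1.5-fold or more with an adjusted p under 0.05, 632 up (2.77%) and 188 down (0.823%). At 2-fold it moved 0.727%, 0.683% up and 0.0438% down, and the share with an adjusted p under 0.05 at any size was 57.2%. Of the 820 genes moved by 1.5-fold, 819 had a net, and each was placed by its Si306 term: deepened where Si306 moved it by 1.5-fold or more the same way, opposed where it moved it as far the other way, and left where it did neither. Opposed changes were cancelled where the net was under 1.5-fold, lessened where 1.5-fold or more remained, and overturned where the net passed 1.5-fold the other way. Of the 631 rises, 10 were deepened (1.58%), 29 were opposed (4.60%), namely 18 cancelled and 11 lessened, and 592 were left (93.8%). Of the 188 falls, 7 were deepened (3.72%), 17 were opposed (9.04%), namely 14 cancelled and 3 overturned, and 164 were left (87.2%). In both directions together 17 genes were deepened and 46 opposed, an order that turned to 2498 deepened and 250 opposed with each scan centred on its median and to 399 and 290 with the software's ratios. Over all 22833 genes, Si306 moved 5.05%, raising 3.09% and lowering 1.96%, and these shares are the background for reading the classes. At 2-fold it moved 0.723%, 0.569% up and 0.153% down, and 66.5% had an adjusted p under 0.05 at any size. The 2 Gy RNA is the numerator of the first term and the denominator of the second, so an error in it puts genes into the opposed classes, and this cannot be told apart from opposition by Si306. Among the 592 left rises the Si306 term ran from -0.58 to 0.58 with a median of -0.11, and 401 still passed as net rises, while among the 164 left falls 105 still passed as net falls. The genes nearest to the threshold were PNISR (Si306 term 0.59), SEC24D (0.59) and ZFPM1 (-0.59) inside it and KITLG (0.58, with a net of 1.29), KLF16 (-0.58) and LBX1 (-0.57) outside it.

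**Figure D2:**
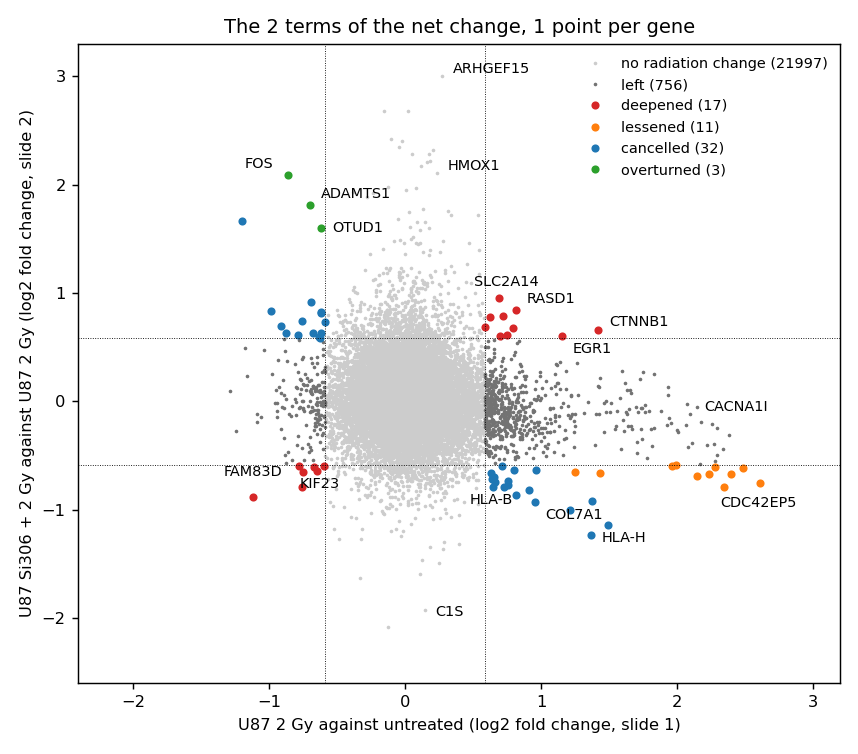
Each point is 1 gene, with the log2 fold change of U87 2 Gy over untreated on the x axis and that of U87 Si306 + 2 Gy over U87 2 Gy on the y axis, each a mean of 2 arrays, and dotted lines at 1.5-fold. Colours give the class of the 819 radiation changes. Most radiation changes lie in the horizontal band of genes that Si306 left, and the 3 overturned genes lie at the upper left.

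Of the 819 radiation changes, 289 (35.3%) had 2 Gy RNA within 2-fold on the slides, 454 were brighter on slide 1 by 2-fold or more and 76 on slide 2. For 38 of them the RNA was not well above background on slide 2, 30 of them left rises, so a fall with Si306 would not have been detectable there. Among the 289 were 168 left rises and 93 left falls, 9 deepened and 19 opposed genes.

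The deepened rises included genes of transcription, signalling and transport. CTNNB1 encodes beta-catenin, which links cadherins to actin and carries Wnt signals. Its radiation ratios were 1.41 and 1.43, its Si306 ratios 0.66 and 0.66, and the net was 2.08 ± 0.04 (adjusted p = 2.71e-10 in limma), a 4.23-fold rise. The 2 arrays of each term nearly coincided, while the shared sign of all 4 was required by the naming rule. Its other probe gave a net of 1.16, and the 2 Gy RNA lay at 11.31 and 10.94 on the slides. EGR1, a zinc finger factor of the immediate early response, gave 1.16 and 1.14, then 0.54 and 0.66, for a net of 1.75 ± 0.05 or 3.37-fold, with 2 Gy RNA that differed by 1.11 between the slides. RASD1, a small GTPase gene, gave 0.87 and 0.76, then 0.81 and 0.88, for a net of 1.66 ± 0.06. SLC2A14, a glucose transporter gene, gave 0.68 and 0.70, then 0.93 and 0.97, for a net of 1.64 ± 0.04. In both genes the shared sign of the 4 arrays was likewise required by the rule. RRAD, another small GTPase gene, had a net of 1.36, and 1.27 by its other probe. MANF, a secreted factor of the endoplasmic reticulum, had a net of 1.30 (1 radiation array) and ARRDC3, an arrestin family gene, 1.28. The deepened falls that carry gene names were FAM83D, a spindle protein gene with -0.76 and -0.74, then -0.66 and -0.64, for a net of -1.41 ± 0.05, ACSL3, an acyl-CoA synthetase gene with a net of -1.29 and -0.12 by its other probe, and KIF23, the kinesin of cytokinesis, with a net of -1.27.

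The promoter of EGR1 is shown because EGR1 rose in both terms, and its capitals mark CArG boxes, the letters bound by serum response factor, which were found 2 times, with both strands searched. The window runs from 250 bases before to 50 after the start in RefSeq on GRCh38.p14, at chr5:138465229-138465528 on the plus strand. CArG boxes occurred in promoters of 438 of 27305 genes and of 2 of the 19 immediate early genes with a promoter here. A match is a description of the letters only.

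EGR1 promoter: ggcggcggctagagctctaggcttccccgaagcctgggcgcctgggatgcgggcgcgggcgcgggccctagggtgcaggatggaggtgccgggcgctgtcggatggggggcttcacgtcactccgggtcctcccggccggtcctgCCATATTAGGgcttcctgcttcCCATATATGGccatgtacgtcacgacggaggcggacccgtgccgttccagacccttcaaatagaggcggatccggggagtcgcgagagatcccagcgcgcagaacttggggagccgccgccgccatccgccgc

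The 3 overturned genes were FOS, ADAMTS1 and OTUD1. FOS, a partner in the AP-1 transcription factor, gave radiation ratios of -0.84 and -0.89 and Si306 ratios of 2.13 and 2.05. Both radiation arrays were below 0, both Si306 arrays were more than 2 above it, and the net was 1.23 ± 0.05 (adjusted p = 1.51e-08 in limma), or 2.34-fold above untreated. Its 2 Gy RNA lay at 10.45 on slide 1 and 8.69 on slide 2, a difference of 1.76 that exceeds the net. OTUD1, a deubiquitinase gene, gave -0.59 and -0.64, then 1.55 and 1.65, for a net of 0.98, and its other probe gave -0.33. ADAMTS1, a secreted protease gene, gave -0.70 on both arrays and 1.81 on the 1 Si306 array with a value, for a net of 1.11, with 2 Gy RNA that differed by 4.09 between the slides. None of the 3 had 2 Gy RNA within 2-fold on the slides.

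The FOS and DUSP1 promoters are shown because these genes rose with Si306 from a radiation term at or below 0. Capitals mark TGACGT, the core of the cyclic AMP response element, searched on both strands, and adjacent matches on opposite strands overlap in the full element. It was found 1 time in the FOS window (chr14:75278578-75278877, plus strand) and 3 times in the DUSP1 window (chr5:172771146-172771445, minus strand). Promoters of 2633 of 27305 genes held it (9.64%), as did those of 8 of the 19 immediate early genes, 6 of the 9 that rose, 0 of the 2 that fell and 2 of the 8 that did not pass. The EGR1 window above also holds it 2 times. This is a description, and no factor was measured.

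FOS promoter: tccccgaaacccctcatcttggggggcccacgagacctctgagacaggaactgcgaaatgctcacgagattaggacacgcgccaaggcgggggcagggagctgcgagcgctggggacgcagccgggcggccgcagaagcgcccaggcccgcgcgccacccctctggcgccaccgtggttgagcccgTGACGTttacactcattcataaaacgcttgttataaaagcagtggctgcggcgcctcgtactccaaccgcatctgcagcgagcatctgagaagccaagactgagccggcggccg

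DUSP1 promoter: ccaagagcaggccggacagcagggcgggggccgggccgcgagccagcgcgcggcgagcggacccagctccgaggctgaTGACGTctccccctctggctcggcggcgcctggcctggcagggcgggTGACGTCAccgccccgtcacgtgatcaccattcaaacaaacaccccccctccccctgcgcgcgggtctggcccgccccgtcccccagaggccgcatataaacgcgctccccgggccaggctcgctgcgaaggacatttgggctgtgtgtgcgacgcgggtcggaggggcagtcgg

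Among the cancelled rises, the net of COL7A1, the anchoring fibril collagen gene, was 0.02 ± 0.05 from radiation ratios of 0.99 and 0.92 and Si306 ratios of -0.95 and -0.92. FOXK1, a forkhead factor gene, had a net of -0.05 and PPP1R12C, a myosin phosphatase subunit gene, -0.06. The pseudogene ANXA2P1 had a net of -0.02, and it is uncertain because its sequence is close to ANXA2. HLA-B, a class I antigen gene, gave 0.65 and 0.68, then -0.74 and -0.76, for a net of -0.09 (-0.36 by its other probe), and HLA-H 1.33 and 1.41, then -1.25 and -1.22, for a net of 0.14. Class I genes share long stretches, so the 2 probes may read each other's transcripts. PTPN11, which encodes the phosphatase SHP2 of the RAS route, gave 0.64 on both arrays, then -0.73 and -0.71, for a net of -0.07. For FOXK1, HLA-B and PTPN11 the 2 Gy RNA lay within 0.5 on the slides (differences of 0.28, 0.39 and 0.47), whereas for CYP26B1, with a net of 0.09, it differed by 2.78. The cancelled falls included PLOD2, a collagen lysyl hydroxylase gene (-0.95 and -0.87, then 0.70 and 0.69, net -0.21), NTN4, a laminin-related netrin gene (net 0.21), CLMP, a junction adhesion gene (net 0.20), SEC24D, a vesicle coat gene (net -0.04), and PNISR, a splicing-related gene (net -0.04). Of the 14 cancelled falls, 12 had 2 Gy RNA within 2-fold on the slides, and of the 18 cancelled rises 7.

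**Figure D3:**
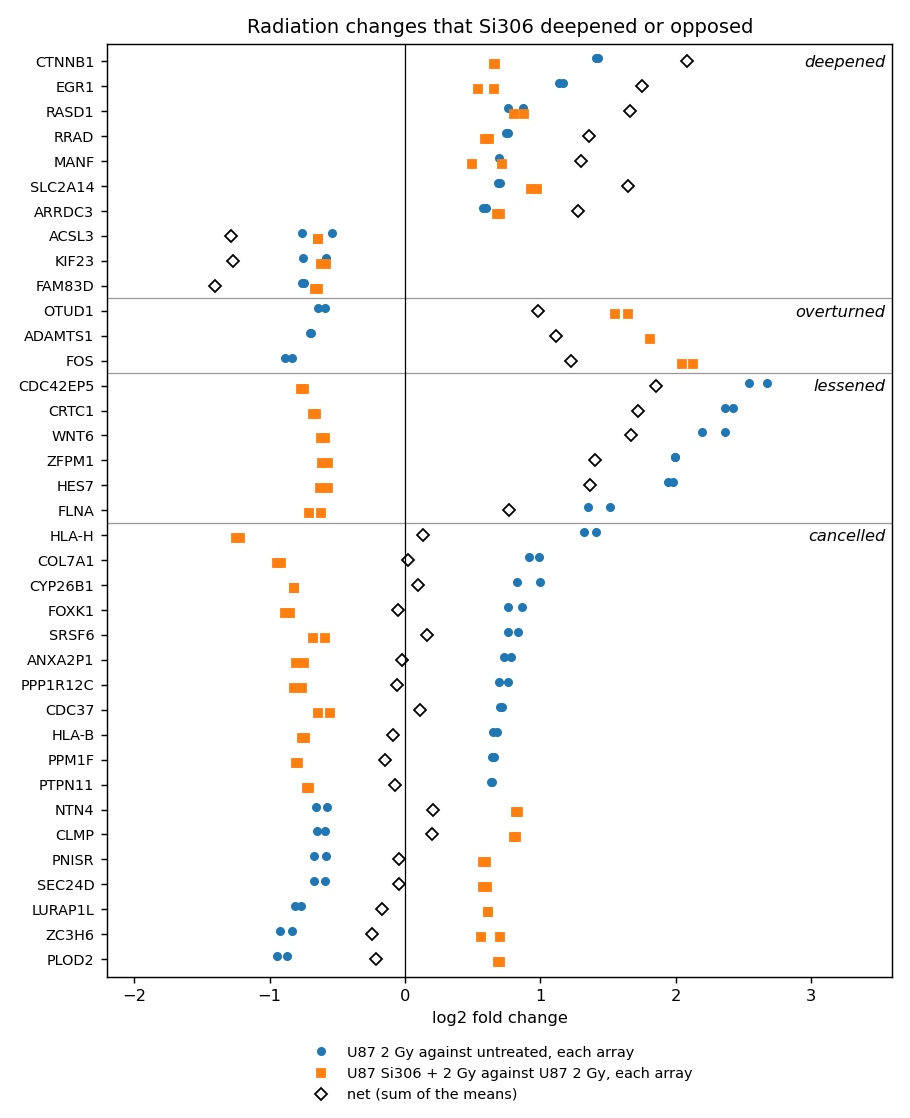
Rows are 37 genes with a gene name among the 63 deepened or opposed radiation changes, and the x axis is the log2 fold change. Circles are the 2 arrays of U87 2 Gy against untreated, squares the 2 arrays of U87 Si306 + 2 Gy against U87 2 Gy, and diamonds the net. Nets of cancelled genes lie within 0.25 of 0, and those of lessened genes lie between 0.77 and 1.85.

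The lessened rises had large radiation terms, and most had G+C-rich probes. CDC42EP5, an effector of the GTPase CDC42, gave 2.68 and 2.54 after radiation and -0.74 and -0.77 with Si306, which left a net of 1.85. CRTC1, a CREB coactivator gene, had a net of 1.72, WNT6, a Wnt ligand gene, 1.67, ZFPM1, a GATA cofactor gene, 1.40, HES7, a bHLH repressor gene, 1.37, and FLNA, the actin crosslinker filamin A, 0.77. Probes of 60% G+C or more were 9 of the 11 lessened rises, 0 of the 10 deepened rises and 162 of all 631 radiation rises (25.7%), against 1149 of the 22816 tested genes (5.04%). Among radiation falls they were 2 of 188. The radiation rises with G+C-rich probes had a median radiation term of 1.22 and a net of 1.26, those with other probes 0.72 and 0.65. All 11 lessened rises had 2 Gy RNA at least 2-fold brighter on slide 1. The largest left rises were of the same kind: CACNA1I (2.28 and 2.23, then -0.16 and -0.26, net 2.04), GPR153 (2.24 and 2.35, then -0.26 and -0.24, net 2.04), MEX3D (net 1.89, with -0.01 and 0.04 by its 2 other probes), LCE5A (net 1.87) and BBC3 (net 1.72, with 0.34 and 0.50 by its other probes), with 68.3% to 85% G+C in the probe. The part of probe composition in these rises was not tested. With all probes of 60% G+C or more left out, rises were 69.9% of the net DEGs, against 75.9% with them.

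Probe stretches are shown because G+C-rich probes were frequent among the lessened and the largest left rises and were not found among the deepened rises. Each line gives bases 1 to 30 of the 60-base probe, read from the deposited scanner tables, with G and C in capitals. The positions of whole probes on hg17 are chr19:59668098-59668157 for CDC42EP5, chr1:6243852-6243911 for GPR153, chr19:52423274-52423333 for BBC3, chr3:41256753-41256812 for CTNNB1, chr5:137832790-137832849 for EGR1 and chr14:74817967-74818026 for FOS, without strand in the tables.

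CDC42EP5 (lessened, 71.7% G+C): CCCCCaGGCCCGCtGCCGCCCCaaCGCGGa

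GPR153 (left, 80% G+C): CCCCCGaCGGCGCaGatCCCGGaGaGGCCC

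BBC3 (left, 85% G+C): CCCGCCGtCaCCGCCGCCCtGGGGGGttCC

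CTNNB1 (deepened, 35% G+C): tGatCaaaaaCtatttGGGatatGtatGGG

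EGR1 (deepened, 36.7% G+C): aaaCaaaGtGaCtGtttGGCttataaaCaC

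FOS (overturned, 55% G+C): aGaGGGttCCtGtaGaCCtaGGGaGGaCCt

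The falls left by Si306 were led by ETV3, an ETS repressor gene whose arrays disagreed (-0.32 and -2.004) and whose net of -0.93 has an SE of 0.37. The next were STAG2, a cohesin subunit gene (-0.98 and -0.97, then 0.24 and 0.28, net -0.72, with 0.30 by its other probe and 0.10 with each scan centred on its median), RNASEK (net -1.09, with 1 Si306 array), CENPA, the centromeric histone H3 variant (-0.98 and -0.89, then -0.07 and -0.10, net -1.02), and SLC38A2, an amino acid transporter gene (-0.93 and -0.94, then 0.43 and 0.33, net -0.56, with -0.25 by its other probe). For SLC38A2 the Si306 term did not reach 1.5-fold, yet the net no longer passed it.

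By source, the 1650 net rises at 1.5-fold were 519 from Si306 alone, 401 from radiation alone, 24 called in both terms, lessened and overturned changes included, and 706 from neither, that is, from 2 terms that each stayed below the threshold. Si306 alone stands for the Si306 term alone, which was measured in irradiated cells only. The 856 net falls were 281 from Si306 alone, 105 from radiation alone, 7 from both and 463 from neither. The class without a term of its own was thus the most frequent in both directions. G+C-rich probes were 32.2% of the net rises from radiation alone and 5.59% of those from Si306 alone.

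The gene lists below are described by how many members passed the net test at 1.5-fold (7.23% of all genes rose and 3.75% fell) and by their median beside 0.07 over all genes. Each direction was also computed with every scan centred on the median of its tested gene probes, in place of the intensity-dependent loess curve. These values are marked centred below, with the numbers of members then called up and down. The median of all genes was then 0.0283. Centred, 63.7% of all genes were called, 30.5% up and 33.2% down, so the centred counts are read against these shares and not against 7.23% and 3.75%. The software's ratios changed the order of rises and falls in the complement list (1 up and 3 down, against 2 up and 1 down) and in the SRC list, and gave 3 rises in place of 1 among the clustered histone genes.

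Immediate early genes, the first transcripts after growth factor or stress signals, rose in 9 of 23 and fell in 2, with a median of 0.40 (0.94 centred, 16 up and 1 down). Radiation alone raised 2 and lowered 2, Si306 raised 6 and lowered 0. ATF3, a stress-induced repressor gene, gave -0.32 and -0.24 after radiation, 1.91 and 1.86 with Si306 and a net of 1.60 ± 0.05, with 0.21 by its other probe. DUSP1, the phosphatase that turns off MAP kinases, gave -0.15 and -0.18, then 1.41 on both arrays, for a net of 1.25 ± 0.05. Like FOS, both moved from below 0 to above it. JUND, an AP-1 partner, had a net of 0.83 from 0.18 and 0.11, then 0.75 and 0.63. KLF6, a zinc finger factor gene, fell, with -0.45 and -0.47, then -0.53 and -0.56, for a net of -1.004, with -0.46 and -0.32 by its other probes and 0.086 centred. The 2 Gy RNA was brighter on slide 1 by 2-fold or more for 9 of the 23 and on slide 2 for 4, and ATF3 (13.82 and 8.80) and DUSP1 (13.26 and 10.57) were among the former. Of the 9 that rose, 1 lay within 2-fold, and so did both that fell.

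Hypoxia and glycolysis genes rose in 7 of 16 and fell in 0, with a median of 0.47 (1.54 centred, 15 up and 0 down). Si306 raised 6 and radiation 1. ADM, the vasodilator peptide adrenomedullin, gave 0.55 and 0.54, then 1.40 on both arrays, for a net of 1.94 ± 0.04 or 3.85-fold, with 2 Gy RNA at 14.79 and 10.95 on the slides. ANGPTL4, a lipase inhibitor, had a net of 1.72, ANKRD37 1.36, the carbonic anhydrase CA9 0.96, the glucose transporter SLC2A1 0.78 and the prolyl hydroxylase EGLN3 0.72. CA9 was the member that radiation raised (0.72 and 0.74), and the others moved with Si306. The angiogenic factor VEGFA (0.52, but 0.65 to 1.05 by its 3 other probes) and lactate dehydrogenase LDHA (0.35) did not pass. The 2 Gy RNA lay within 2-fold for 9 of the 16 members and for 3 of the 7 that rose. ANGPTL4 (8.43 and 11.77) was brighter on slide 2, and CA9 (12.39 and 9.02) on slide 1.

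ATF4 and unfolded protein response genes, which answer to amino acid shortage and to misfolded protein, rose in 6 of 20 and fell in 1, with a median of 0.21 (1.09 centred, 16 up and 1 down). DDIT3, the death-promoting factor CHOP, had a net of 1.12, the mTOR inhibitor DDIT4 0.94, the chaperone HSPA5 0.91 (-0.35 by its other probe), SEL1L 0.89 (0.43 by its other probe) and DNAJB9 0.83. The cystine transporter SLC7A11 fell, with a net of -0.65 (-0.44 and -0.12 by its other probes). Of the 20, 14 had 2 Gy RNA brighter on slide 1 by 2-fold or more. The NRF2 and metallothionein list, which HMOX1 belongs to, rose in 3 of 15 and fell in 1 (TXNRD1, thioredoxin reductase, net -0.74), with a median of -0.15, but 0.86 centred with 9 up and 0 down, and 14 of the 15 were brighter on slide 1.

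The p53 targets rose in 9 of 29 and fell in 0, with a median of 0.23 (0.56 centred, 13 up and 1 down). Radiation raised 4 of them. CDKN1A gave 0.39 and 0.38, then 0.22 and 0.20, for a net of 0.59 ± 0.04, or 1.51-fold, at the threshold, with 2 Gy RNA at 13.18 and 10.01. MDM2, the p53 ubiquitin ligase, had a net of 0.02 and did not pass (adjusted p = 0.729 in limma). TRIAP1, an inhibitor of apoptosis, gave 0.68 and 0.60, then 0.27 and 0.22, for a net of 0.89, and its 2 Gy RNA lay at 10.90 and 10.79. PLK2, a polo-like kinase gene, had 0.47 and 0.39, then 0.45 and 0.43, for a net of 0.87, with 13.54 and 13.55. Of the 9 that rose, these 2 had 2 Gy RNA within 2-fold on the slides. In both genes the slides held the 2 Gy RNA at nearly the same level, and the Si306 term was above 0 on both arrays without reaching 1.5-fold. PHLDA3, an AKT inhibitor, had a net of 0.87, FDXR, a mitochondrial reductase, 0.74, and GDF15, a stress cytokine, 1.08, but their 2 Gy RNA was brighter on slide 1 by 5.02, 1.93 and 8.61. Of the 29, 19 were brighter on slide 1 by 2-fold or more. In the BCL2 family and caspases, 4 of 20 rose and 0 fell, among them BBC3, the death gene PUMA, CASP8 (net 0.88) and BAK1 (0.59), with a median of 0.23 (0.75 centred, 11 up and 1 down).

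Mitotic genes fell in 13 of 29 and rose in 0, with a median of -0.54 and all 29 below 0, but the median was 0.26 centred, with 2 up and 3 down. Radiation lowered 5 and Si306 3. KIF20A, a kinesin of the central spindle, gave -0.90 and -0.85, then -0.50 and -0.49, for a net of -1.37 ± 0.04. KIF23 gave -0.58 and -0.76, then -0.62 and -0.58, and CENPA fell through radiation, with a net of -1.02. NUSAP1, a microtubule-bundling protein gene, fell through Si306 (-0.15 and -0.30, then -0.79 and -0.69, net -0.97). PLK1 (net -0.93 with 1 Si306 array, and -0.37 by its other probe), the kinase of mitotic entry, and UBE2C (-0.87), the ubiquitin carrier of the anaphase complex, passed in the net only, with -0.43 and -0.50 as terms of PLK1 and -0.52 and -0.35 as those of UBE2C, whose net was 0.26 centred. AURKB, the passenger complex kinase (-0.07), and CDC20 (-0.21) did not pass. The 2 Gy RNA was within 2-fold for 14 of the 29, 8 of which fell, and brighter on slide 2 for 15.

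The KIF23 promoter is shown because KIF23 is the mitotic gene that both terms lowered past 1.5-fold. Capitals mark TTTGAA, the cell cycle homology region through which many G2/M genes are repressed, searched on both strands (chr15:69414099-69414398, plus strand, with 1 match). Promoters of 16 of the 25 mitotic genes found in RefSeq held it, 7 of the 10 that fell and 9 of the 15 that did not pass, against 4961 of 27305 genes (18.2%).

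KIF23 promoter: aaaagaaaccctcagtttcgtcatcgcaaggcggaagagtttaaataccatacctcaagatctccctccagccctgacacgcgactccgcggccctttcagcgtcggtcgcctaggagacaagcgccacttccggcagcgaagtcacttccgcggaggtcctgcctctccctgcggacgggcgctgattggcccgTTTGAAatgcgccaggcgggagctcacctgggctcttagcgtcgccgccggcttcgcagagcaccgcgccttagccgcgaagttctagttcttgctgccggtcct

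DNA replication genes fell in 9 of 27 and rose in 0, with a median of -0.44, but 0.38 centred with 7 up and 4 down. Here Si306 lowered 7 and radiation 0, and radiation raised 2. RRM2, the ribonucleotide reductase subunit, gave -0.57 and -0.53, then -0.94 and -0.91, for a net of -1.48 ± 0.05, with -0.02 by its other probe. The helicase gene MCM7 had a net of -1.09, CDC45 -0.86 (1 Si306 array), the thymidine kinase TK1 -0.69, RRM1 -0.63 and MCM2 -0.62, and centred these 5 were above 0, at 0.11, 0.048, 0.60, 0.53 and 0.10. The clamp gene PCNA (0.28) and MCM5 (0.34) did not pass. Of the 27, 13 had 2 Gy RNA within 2-fold, and 4 of these fell. Of the 15 clustered histone genes 1 rose, H2BC4 (net 0.69), and 0 fell, with a median of 0.04 (0.57 centred, 7 up and 1 down).

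**Figure D4:**
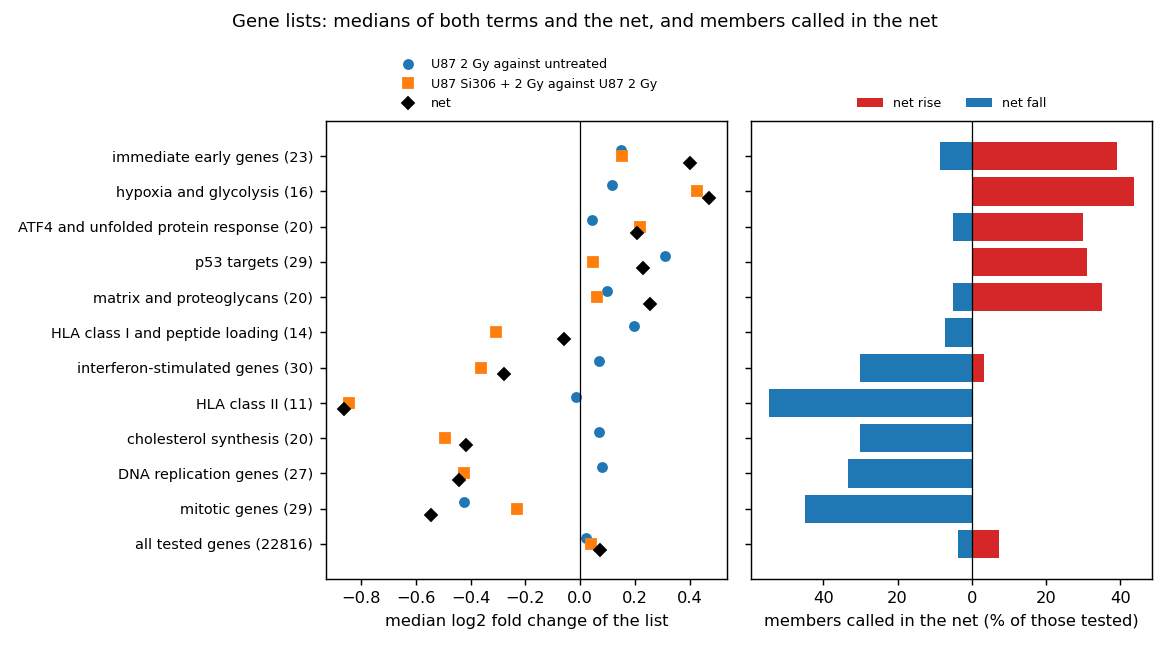
The left panel gives the median log2 fold change of each list for the 2 terms and the net, with the number of tested members in brackets, and the right panel the percentage of members that rose (to the right) or fell (to the left) in the net by 1.5-fold or more with an adjusted p under 0.05. HLA class II, cholesterol synthesis and DNA replication genes have their lower medians in the Si306 term and mitotic genes in the radiation term, while p53 targets have their higher median in the radiation term. All 22816 genes are at the bottom, with 7.23% rises and 3.75% falls.

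Interferon-stimulated genes, which carry the antiviral state, fell in 9 of 30 and rose in 1, with a median of -0.28, but 0.04 centred with 10 up and 6 down. Si306 lowered 11 and raised 1, and radiation moved 0. MX1, an antiviral GTPase, gave 0.10 and 0.15, then -1.47 on both arrays, for a net of -1.34 ± 0.05. XAF1, a pro-apoptotic gene, had a net of -1.50 and -0.58 and -0.49 by its other probes. GBP1 had -1.19 and IFI27 -0.90. For IFI27 the 2 Gy RNA was at 6.69 on slide 1 and 14.61 on slide 2, and its untreated level of 6.76 on slide 1 was near the low end, where a fall after radiation could hardly be seen. OASL, a 2'-5' oligoadenylate synthetase-like gene, moved the other way, with 0.07 and 0.10, then 1.00 and 1.05, for a net of 1.11. The members differed in direction, and IFIT1 (0.39), IFIH1 (0.45) and RIGI (0.40), sensors and effectors of viral RNA, did not pass. For MX1 and XAF1 the untreated levels on slide 1 were 6.68 and 7.13, where the leukocyte marker PTPRC, not well above background, stood at 6.11. Falls below untreated of the size of their nets could hardly be seen there. Their Si306 falls started from 10.26 and 8.76 on slide 2. Of the 30 members, 21 were brighter on slide 2 by 2-fold or more and 0 on slide 1. Of the 9 members within 2-fold, 3 fell.

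The MX1 and IFI27 promoters are shown because Si306 lowered both by more than 1.5-fold while radiation did not. Capitals mark GAAANNGAAA, the core of the interferon-stimulated response element, searched on both strands. The first of 3 MX1 windows (chr21:41420308-41420607, plus strand) holds 1 match and the first of 2 IFI27 windows (chr14:94110486-94110785, plus strand) 2. Promoters of 16 of the 23 listed genes found in RefSeq held it, 5 of the 7 that fell and 11 of the 16 that did not pass, against 1195 of 27305 genes (4.38%).

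MX1 promoter: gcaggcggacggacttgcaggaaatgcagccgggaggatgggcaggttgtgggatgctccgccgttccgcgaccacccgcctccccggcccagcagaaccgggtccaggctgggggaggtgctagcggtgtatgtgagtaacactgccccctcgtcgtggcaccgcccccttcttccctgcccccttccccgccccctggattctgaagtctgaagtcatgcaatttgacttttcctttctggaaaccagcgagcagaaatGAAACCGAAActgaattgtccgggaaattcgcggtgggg

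IFI27 promoter: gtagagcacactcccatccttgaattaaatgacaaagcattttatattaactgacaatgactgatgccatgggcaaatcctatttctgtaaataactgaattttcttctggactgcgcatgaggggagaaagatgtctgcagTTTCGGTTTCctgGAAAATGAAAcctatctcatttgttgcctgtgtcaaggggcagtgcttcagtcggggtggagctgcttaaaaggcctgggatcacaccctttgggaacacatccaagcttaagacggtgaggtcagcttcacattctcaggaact

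HLA class II genes, which present peptides to CD4+ T cells, fell in 6 of 11 and rose in 0, and all 11 nets were below 0, with a median of -0.86 (-0.65 centred, 0 up and 8 down). All 6 were lowered by Si306 and 0 by radiation. HLA-DRB1 gave 0.08 and 0.14, then -1.62 and -1.57, for a net of -1.48 ± 0.05 (adjusted p = 2.55e-09 in limma), with 2 Gy RNA at 12.63 and 12.50, and was the 1 fall among the 4 members within 2-fold on the slides. HLA-DRA had a net of -1.28, HLA-DPA1 -1.25 (-0.23 by its other probe), HLA-DPB1 -1.25 (-1.21 by its other probe), the invariant chain CD74 -0.89 and HLA-DQB1 -0.86 (-0.10 and 0.33 by its other probes), and 7 of the 11 were brighter on slide 1 by 2-fold or more. Class II genes are close in sequence and the probes may share transcripts. Leukocyte markers bear on this list, since class II is high in antigen-presenting cells: PTPRC was at 6.05 and 6.19 on the 2 slides and AIF1 at 5.95 and 6.05, not well above background in any group, while CSF1R (11.11 and 10.21), CD79A (8.87 and 8.83) and CD14 (7.34 and 7.45) were above it on at least 1 array of every group. The levels of CD3E and ITGAM ran from 6.35 to 6.67, and 0 of the 6 tested leukocyte markers passed the net test, but 3 rose with the software's ratios, and centred 1 rose and 3 fell. CD86, a costimulatory gene of antigen-presenting cells that is in no list and was named after its values were seen, was at 6.94 and 14.95 in the 2 Gy RNA and 14.04 after the combined treatment, with a Si306 term of -0.91 and a net of -1.09. Its part in the class II values was not tested. The master regulator CIITA (-0.45) did not pass. HLA class I and peptide loading genes had 1 of 14 down in the net (ERAP1, the trimming peptidase, -0.68), 0 up and a median of -0.06, but 0.98 centred with 11 up and 2 down, although Si306 lowered 3.

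Cholesterol synthesis genes, which answer to SREBP2, fell in 6 of 20 and rose in 0, with a median of -0.42, but 0.19 centred with 5 up and 1 down. Si306 lowered 6 of the 20, and radiation lowered 0 and raised 1. Lanosterol synthase LSS gave -0.07 and 0.04, then -1.20 on both arrays, for a net of -1.21 ± 0.05 (-1.06 to -0.17 by its 3 other probes), with 2 Gy RNA at 12.49 and 12.21. The isomerase IDI1 had a net of -0.93 and squalene synthase FDFT1 -0.82 (0.082 centred). The 2 Gy RNA of 12 of the 20 members was brighter on slide 2 by 2-fold or more.

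Matrix and proteoglycan genes rose in 7 of 20 and fell in 1, with a median of 0.26 (0.88 centred, 14 up and 0 down). The 2 fibrillar collagen I chains came from different terms: COL1A1 rose by a net of 0.65 through radiation (0.80 and 0.79, then -0.15 and -0.13) and COL1A2 by 0.72 through Si306 (-0.12 and -0.14, then 0.85 on both arrays), with 0.49 by its other probe. The crosslinking oxidase LOX had a net of 1.13 and elastin ELN 1.07, both through Si306, ELN with at most 0.18 by its 2 other probes. Tenascin TNC had a net of -0.91, but 0.026 centred. The 2 Gy RNA lay within 2-fold for 4 of the 20 members and for 1 of the 7 that rose, and was brighter on slide 1 for LOX (12.87 and 10.30), COL1A2 (13.02 and 9.51) and TNC. Of the YAP and TEAD targets 1 of 17 rose (AMOTL2, net 0.66) and 2 fell (the kinase LATS2, -0.95, and FJX1, -0.61, but 0.31 centred), the radiation term being the larger in all 3, with a median of -0.02, but 0.31 centred with 8 up and 1 down. Secretory-phenotype cytokines rose in 4 of 21 and fell in 0, among them the chemokine CXCL2 (net 0.61, but 0.013 by its other probe) and the collagenase MMP1 (0.60), with a median of 0.07 (0.15 centred, 6 up and 3 down). For CXCL2 the 2 Gy RNA was at 13.16 and 8.65, and 0 of the 4 rises had it within 2-fold. In the complement list 1 of 12 fell, C1S, and 2 passed upward, the protease gene CFD and C1QTNF1, named after their values were seen. The probe of CFD was not well above background on slide 1 and that of C1QTNF1 not on slide 2, so no fold is given. The list had a median of 0.03 (0.32 centred, 3 up and 3 down).

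The list of SRC kinases and their downstream genes rose in 1 of 25 and fell in 3, with a median of 0.03 (0.35 centred, 9 up and 4 down). The software's ratios gave 5 up and 4 down with a median of -0.09, and a background offset of 10 gave 5 up and 3 down. The target of the drug, SRC, had a net of 0.49 and did not pass 1.5-fold, and its probe was not well above background in both channels on all 4 arrays. ABL2, a related kinase, gave -0.24 and -0.27, then 1.39 and 1.32, for a net of 1.10, but 0.16 by its other probe. MYC had a net of -0.68 (-0.24 and -0.23, then -0.46 and -0.45), with 0.30 by its other probe, 0.35 centred and 2 Gy RNA at 13.15 and 13.12. PIK3CA, the PI3K catalytic subunit, had -0.68. STAT3 (0.03, but -0.23 and -0.14 by its other probes) and the cyclin CCND1 (0.35, but 0.35 and 0.90 by its other probes) did not pass. CCND1 gave 0.57 and 0.59 after radiation and -0.21 and -0.24 with Si306.

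Markers of other cell types were read beside these lists. The alpha globin genes HBA1 and HBA2 stood at 6.61 and 6.14 in the 2 Gy RNA of slide 1, at 9.46 and 9.39 in that of slide 2 and at 11.74 and 11.60 after the combined treatment, with Si306 terms of 2.28 and 2.21. The HBA2 probe with these values was not well above background on any array of slide 1, while the gene's other probe was on at least 1 array there and had a net log2 change of 0.0040, so the probes disagree. HBA1 was not above background on every array, and no net is given for it or for the first HBA2 probe. HBB (6.23 and 6.08), the beta globin gene that defines red cells with them, was at the low end on both slides. Of the 4 erythroid markers tested, these 2 alpha globin genes passed the net test upward, both at 2-fold, and 0 fell (2 up and 1 down centred, 4 up with the software's ratios). None of the 5 epithelial markers tested passed the net test (1 up and 2 down centred), and 3 of them were brighter on slide 2 by 2-fold or more. Of the 5 neuron markers tested 1 passed upward, STMN2, which was well above background on at least 1 array after the combined treatment but on none in the untreated RNA or in the 2 Gy RNA of either slide, so no fold is given. None passed downward (0 up and 2 down centred), and GAD1 stood at 11.41 and 10.18.

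The most similar comparison is the net of U87 Si306 + 10 Gy over untreated, measured on the other 4 arrays of the same slides with n = 2 arrays a term. Whether the untreated RNA of both doses was 1 extract is not given in the sources used here. The 2 nets differed by 2-fold or more with an adjusted p under 0.05 in 70 of 22813 genes (0.307%), 24 higher (0.105%) and 46 lower (0.202%) at 10 Gy. An adjusted p under 0.05 at any size was reached by 23.5%. The slide difference of the linking RNA was similar at both doses, as given above. FOS differed most among the named genes, with a net of 1.23 at 2 Gy and -1.44 at 10 Gy, a difference of -2.67 ± 0.07 (adjusted p = 7.03e-09 in limma). At 10 Gy its radiation term was -1.58 and its Si306 term 0.14. EGR1 had nets of 1.75 and 0.15, and its radiation term was 1.15 at 2 Gy and -0.23 at 10 Gy. ARHGEF15 (3.27 and 1.22), CCR3 (2.53 and 0.33), HMOX1 (2.34 and 1.16), ADM (1.94 and 0.75) and ATF3 (1.60 and 0.60) were higher at 2 Gy. DCN, the proteoglycan decorin, was higher at 10 Gy (0.69, with 1 Si306 array, and 2.08). Genes for which the difference was not detected included CTNNB1 (2.08 and 2.02, difference -0.06 ± 0.06), HLA-DRB1 (-1.48 and -1.39) and LSS (-1.21 and -1.18). The median of p53 targets was 0.23 at 2 Gy and 0.61 at 10 Gy, and CDKN1A had nets of 0.59 and 1.42, a difference of 0.83. COL7A1, cancelled at 2 Gy, had a net of 0.86 at 10 Gy.

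**Figure D5:**
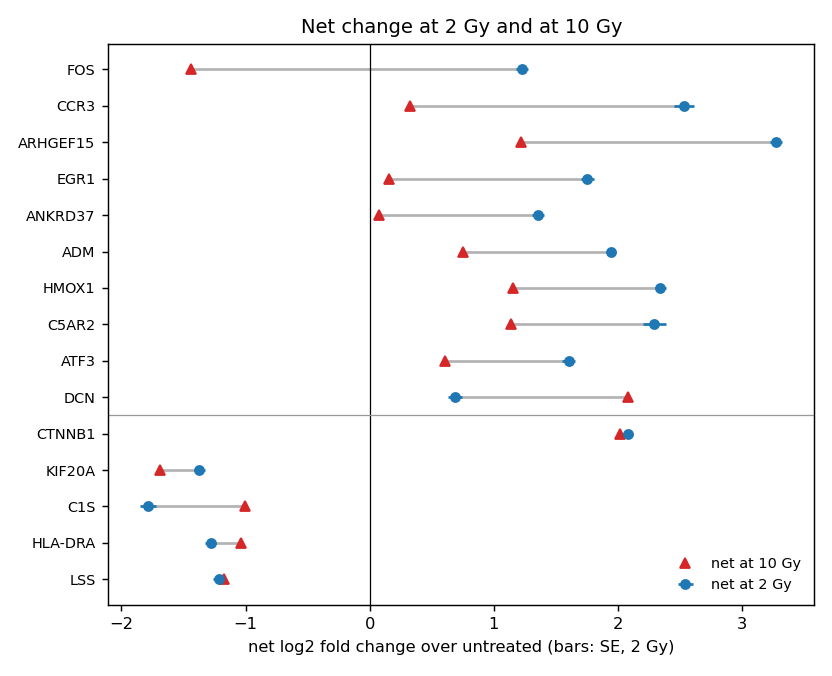
Net log2 fold change over untreated (x axis) of the 10 named genes whose net differed by 2-fold or more between the doses, above the line, and of 5 others for comparison, below it, with circles for 2 Gy (bars, SE) and triangles for 10 Gy. FOS lies above 0 at 2 Gy and below it at 10 Gy, DCN is the 1 gene of the 10 with the higher net at 10 Gy, and CTNNB1 has nearly equal nets.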

How the data were processed

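Agilent 2-colour 4x44K arrays were scanned with Feature Extraction 9.5.3.1, per the file headers, and the authors deposited for each scan the mean and background intensity of every spot and a log10 ratio of Cy5 over Cy3, which the software had background-subtracted and dye-normalized. The deposited series table holds the same log10 ratios, rounded, with differences of up to 0.005. From the intensities, outlier-flagged spots were left out, background was corrected by normexp with an offset of 50, and each scan was loess-normalized in limma 3.58.1 (R 4.3.3). Spots were averaged per probe and scans per array (8 arrays, 3 scans each, 2 scans left out), and the brightest probe stood for a gene, of 30316 probes kept on 22857 gene names. Of these, 14573 were found in the RefSeq gene table.

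All 8 arrays entered 1 fit (lmFit, eBayes), with the net as the sum of both terms and Benjamini-Hochberg adjustment over all genes. On simulated data, 25 of 25 genes were recovered for each of Si306 alone, cancelled, deepened and left at log2 sizes of 1 and 2, and other classes and sizes were not simulated. The simulated noise had the small fitted spread (prior SD 0.0537), with no dye effect and no slide difference of the linking RNA. Full recovery therefore checks the computation only and does not bear on these limits of the net. The share of spots well above background was 64.6% to 69.8% in red and 57.6% to 63.5% in green, and the number of arrays limits the precision.

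Genes were named by rule among those well above background in both channels on all 4 arrays. The 8 largest net rises and falls were taken where the net kept its sign over all pairs of arrays. Within classes, the same sign was required on both arrays of the term concerned, with up to 5 genes a direction. These had the largest nets of deepened and overturned changes, the smallest nets of cancelled ones and the largest radiation terms of left ones. Lists gave up to 6 net-called members each, without a rule on sign. A further 10 fixed genes were named whatever their values. Some genes that the rule picks are not reported here. Other genes of the classes, lists and markers were named after their values were seen. The members and lists were chosen with earlier results of these data known. Alternatives were another background offset or none, other centring, the software's ratios, a separate-channel model, filters, probe G+C content, blocks, other thresholds and leaving out each array. Promoter sequences are from RefSeq on GRCh38.p14.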

Additional observations from a re-analysis of the deposited data

Results flagged for a closer look

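Of 108 named genes, 10 had a net that differed by 2-fold or more between the doses with an adjusted p under 0.05 in limma's test of the difference itself, 9 of them lower at 10 Gy and 1 higher. Given as the net at 10 Gy minus that at 2 Gy on the log2 scale, FOS differed by -2.67 (adjusted p = 7.03e-09), CCR3 by -2.201 (1.65e-06), ARHGEF15 by -2.05 (8.73e-08) and EGR1 by -1.60 (9.49e-07). The hypoxia genes ANKRD37 and ADM differed by -1.28 (2.83e-06) and -1.20 (1.42e-06). HMOX1 differed by -1.18 (2.74e-06), C5AR2 by -1.16 (0.000245) and ATF3 by -1.0004 (1.65e-05). DCN was higher at 10 Gy by 1.40 (4.28e-06), with 1 array in its Si306 term at 2 Gy. Each net rests on 2 arrays a term on the 2 slides, and the slide profile and the dye cannot be told apart from treatment in either net.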

How the results depend on the processing

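The counts of net DEGs (469), deepened (17), opposed (46) and left (756) radiation changes, net changes from Si306 alone (800) and from radiation alone (506), genes that differed between the doses (70) and list members past the net test (109) stayed within 1.5 times without background correction, without a filter, on probes measured on all 4 arrays, with all probes of a gene averaged, without G+C-rich probes, with a curve on G+C content subtracted, and with array or scan session as a block. Leaving out 1 array gave 446 to 488, 16 to 19, 43 to 47, 740 to 818, 757 to 881, 492 to 569, 67 to 83 and 104 to 113. The replicate numbers of the labels number scans, and same-numbered samples did not deviate together (correlations of -0.056 to -0.024 over 5 pairs). With the replicate block the counts were 475, 20, 46, 764, 810, 515, 77 and 108. A normexp offset of 10 gave 843 DEGs, 54 deepened, 81 opposed, 1320 from Si306 and 145 between doses. The software's log10 ratios gave 2737, 399, 290, 1970, 2587, 1350 and 362 for the first 7 counts, and the values of the series table, in the same order, were 2733, 400, 289, 1967, 2587, 1346 and 362. With all scans as labelled, 42 genes differed between the doses. In a further alternative the net count and the difference between doses used 1.5-fold, and the terms, classes, sources and list members 2-fold. The counts were then 2506, 0, 4, 162, 136, 121, 460 and 33. Over genes whose 2 Gy RNA lay within 2-fold on the slides, an alternative chosen after seeing the data, they were 213, 9, 19, 261, 492, 147, 40 and 36, fewer genes being counted.

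Median centring gave 8496, 2498, 250, 2546, 6364, 2085, 221 and 199, with rises 38.8% of the net DEGs against 75.9%, and the cause was not tested. Deepened changes thus outnumbered opposed ones with median centring and with the software's ratios, the other way round than in the reported values. Centring reversed 13 nets: STAG2 0.10, MYC 0.35, UBE2C 0.26, MCM7 0.11, CDC45 0.048, TK1 0.60, RRM1 0.53, MCM2 0.10, KLF6 0.086, TNC 0.026, FDFT1 0.082, FJX1 0.31, CAV1 0.42. Here and above, each scan was centred on the median of its tested gene probes. Centred on the median of all its spots other than controls, 29 of 94 named nets reversed. The median net over all genes was then 0.731.

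The separate-channel model, planned with a dye effect per probe, cannot measure dye here. The irradiated RNA was in Cy5 on slide 1 and in Cy3 on slide 2, so its dye term is the slide difference, and its net differed from the net less 2 times that difference by an SD of only 0.18 (SD of the net itself in this model, 2.396). It gave 10761, 7977, 8, 1459, 1947, 1398 and 289 (without the count between doses, which moved less), with rises 52.5% of the DEGs. Its reversals restate the slide difference and bear on no treatment effect. They were, for the net, HMOX1 -9.37, CACNA1I -3.56, AFG3L1P 0.47, XAF1 2.41, RRM2 0.17, FAM83D 0.74, RRAD -1.77, ACSL3 1.54, KIF23 1.51, FOS -1.96, MEX3D -5.22, GPR153 -6.81, BBC3 -3.61, LCE5A -4.27, STAG2 2.68, CENPA 3.70, CDKN1A -6.58, GDF15 -16.53, PHLDA3 -9.29, FDXR -3.78, KIF20A 2.99, NUSAP1 0.20, UBE2C 1.06, MCM7 1.44, RRM1 1.40, MCM2 1.55, MX1 5.53, GBP1 2.56, IFI27 14.88, ABL2 -1.77, PIK3CA 1.09, ATF3 -8.63, DUSP1 -4.25, KLF6 0.95, CXCL2 -8.67, MMP1 -4.20, LOX -4.17, ELN -0.20, COL1A2 -6.46, COL1A1 -3.41, IDI1 3.99, FDFT1 0.73, LATS2 0.54, AMOTL2 -0.38, DDIT3 -8.82, DDIT4 -4.50, HSPA5 -8.64, SEL1L -1.60, DNAJB9 -0.66, ADM -5.78, CA9 -5.86, CASP8 -0.11, CAV1 0.83, and for the Si306 term COL7A1 0.014, LURAP1L -1.84, CLMP -0.33.

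Of 103 single-gene results over 20 alternatives, 1905 values kept direction and side of the threshold, 72 fell below it, 69 reversed and the rest could not be computed, a probe, spot or array being left out. By gene, 58 of the 103 results were the same under every computed alternative other than the separate-channel model. Signal over background limits 38 of the radiation changes, whose 2 Gy RNA was not well above background on slide 2.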
